A study of Mus musculus with 6 samples.

Results

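Signalling by catecholamines, angiotensin II and endothelin was followed through 9 genes in mouse left ventricular myocardium under pressure overload. The set holds 3 adrenergic receptor genes (Adra1a, Adra1b and Adrb1), a cyclase and a receptor kinase (Adcy5 and Grk5), the angiotensin-converting enzyme and the main angiotensin receptor (Ace and Agtr1a), and both endothelin receptors (Ednra and Ednrb). The members were taken by symbol from a fixed list, and all 9 were found among the 47729 genes of the deposited table. All 9 passed the filter on low counts, as part of 17365 tested genes.

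The Treg libraries (n = 3) came from mice that, going by the study's title, had systemic treatment with regulatory T cells that were induced in vitro and CD28-deprived. The Control libraries (n = 3) came from mice whose treatment the labels do not state. Both groups had TAC surgery, in which a band around the transverse aorta makes the ventricle pump against a raised pressure, and are labelled as day 9 after it. The labels give no strain, age or genotype. They do not say that each library came from its own mouse, so p-values here reflect only how much these libraries vary, which may be technical. No unoperated heart was analysed here.

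Noradrenaline, angiotensin II and endothelin act on heart cells through G protein-coupled receptors. Beta receptors couple through Gs to adenylyl cyclase and cyclic AMP, which raises the force and rate of contraction. Alpha-1, angiotensin type 1 and endothelin receptors couple mainly through Gq to phospholipase C, calcium and protein kinase C, a route known for driving cardiomyocyte growth under load. Receptor kinases of the GRK family phosphorylate active receptors and uncouple them.

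Totals were 29841591 to 29979080 estimated counts in the Treg libraries and 28937253 to 29842787 in the Control libraries. Levels are given as CPM, the count scaled by the library's total after TMM normalization. Cardiomyocyte markers were abundant in every library, with 6 markers summing to 34319 to 46513 CPM in Treg and 29670 to 45497 CPM in Control. Atrial markers (Myl7, Sln and Myl4) summed to 119 CPM in Treg replicate 3 and to 2.79 to 4.81 CPM in the other libraries. Control replicate 3 stood apart over all tested genes: its log2 CPM correlated at 0.936 to 0.957 with the other libraries. Results are therefore also given without Control replicate 3 where it decides them. Summed markers were 199 to 263 CPM in Treg and 173 to 284 CPM in Control for macrophages, 4.42 to 6.03 CPM in Treg and 4.67 to 6.16 CPM in Control for mesothelium, and 684 to 1202 CPM in Treg and 186 to 1815 CPM in Control for erythroid cells. T cell markers summed to 1.48 to 1.82 CPM in Treg and 1.69 to 16.0 CPM in Control, with Cd3d at 0 to 3 counts in a library. Most of the highest sum was Cd3e, at 15.7 CPM in Control replicate 3. By group mean, Cd3e and Cd3d were lower in Treg, and Cd3g, Trac and Cd4 were higher. In this bulk tissue, fewer cells of a type and less RNA per cell cannot be told apart.

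By edgeR's quasi-likelihood test with Benjamini-Hochberg adjustment, 0 of the 9 genes had an adjusted p under 0.05, as had 0% of all tested genes (2 members and 2873 genes had an unadjusted p under 0.05). DESeq2 called 1 member, Adra1a, against 3.9% of all genes it tested. Both members at an unadjusted p under 0.05 by edgeR, Adra1a and Agtr1a, were higher in Treg. Over all tested genes, 16.5% had such a p, with 8.23% higher and 8.31% lower in Treg. In 2 of 9 members the Treg and Control libraries did not overlap, against 25.4% of tested genes (both members were higher in Treg, as were 13.7% of tested genes, while 11.7% were lower). As a set the members were thus close to the background. The median log2 fold change, Treg over Control, was 0.15 for the 9 members and −0.019 for all tested genes. Without Control replicate 3 the members' median was −0.02.

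**Figure D1:**
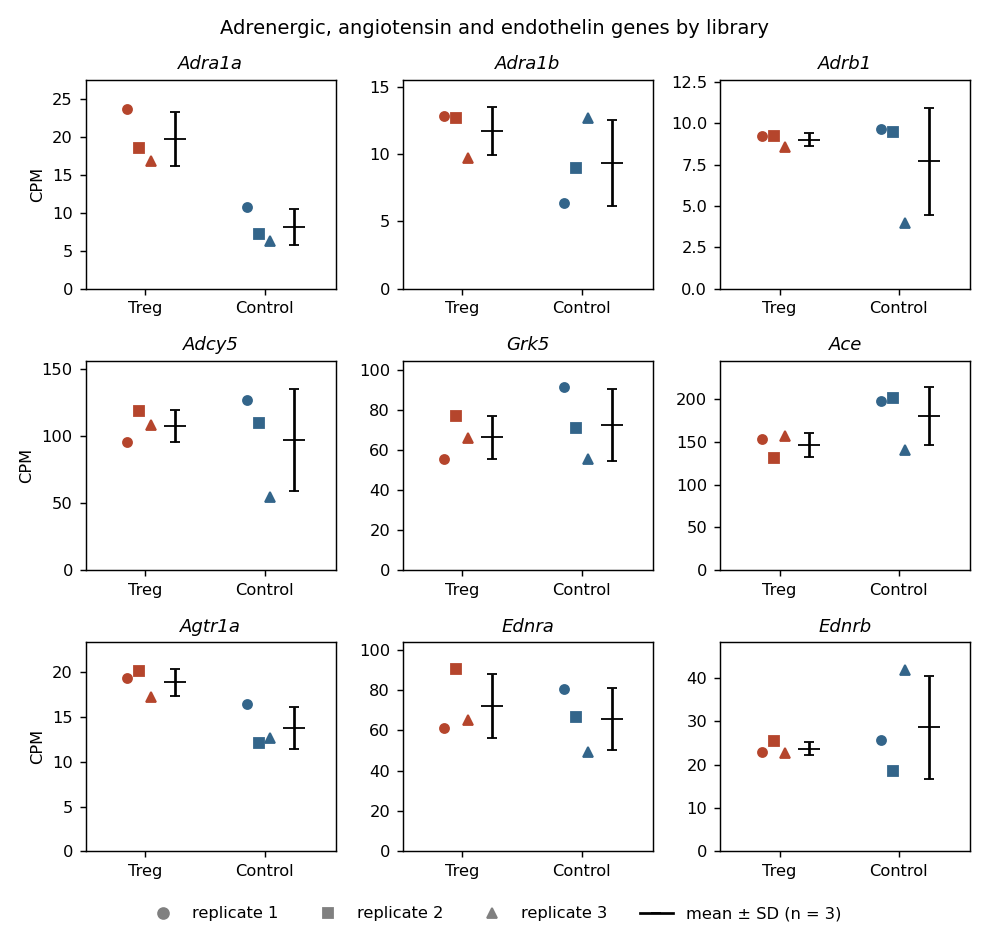
CPM of the 9 genes (vertical axes, each from 0) in the 3 Treg and 3 Control libraries, with symbols for replicates and a bar for the mean ± SD (n = 3). The groups are apart for Adra1a and Agtr1a and overlap for the other 7 genes.

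Adra1a encodes the alpha-1A adrenergic receptor, a Gq-coupled receptor for noradrenaline on cardiomyocytes that is known in mice to protect the stressed heart. The gene (ENSMUSG00000045875) lies on GRCm38 chromosome 14, 66635251 to 66771168. It stood at 23.7, 18.6 and 16.8 CPM in Treg replicates 1 to 3, against 10.8, 7.21 and 6.33 CPM in Control replicates 1 to 3. Every Treg library lay above every Control library, and the lowest Treg library exceeded the highest Control library by more than the SD of either group. The means were 19.7 ± 3.60 CPM in Treg and 8.12 ± 2.37 CPM in Control (SD, n = 3 each), a log2 fold change of 1.28 ± 0.24 (SE). The edgeR adjusted p was 0.116 and DESeq2's was 0.000381. Leaving out any 1 library gave a log2 fold change between 1.13 and 1.55. The edgeR adjusted p then lay between 0.0599, without Control replicate 3, and 0.53, without Treg replicate 1. Counts were 719, 516 and 534 in Treg and 308, 218 and 188 in Control.

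The 3 genes with the most similar pattern were sought among 14968 other genes averaging 1 CPM or more, by the root mean square difference of log2 CPM over the 6 libraries, each gene centred on its own mean. They were Prkcz, which encodes the atypical protein kinase C zeta (difference 0.142), the predicted gene Gm44002 (0.144) and Slc36a2, an amino acid transporter gene (0.146). Prkcz stood at 3.23, 2.88 and 2.57 CPM in Treg and 1.75, 1.32 and 1.04 CPM in Control, a log2 fold change of 1.07 (edgeR adjusted p = 0.165). Slc36a2 had 1.04 (edgeR adjusted p = 0.17). The 3 genes were picked for their likeness to Adra1a in these same libraries, so their fold changes follow from that choice.

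Adra1b encodes the alpha-1B receptor, the other main alpha-1 subtype of the mouse heart (ENSMUSG00000050541, chromosome 11, 43774606 to 43901210). It stood at 12.8, 12.7 and 9.70 CPM in Treg and at 6.35, 9.00 and 12.7 CPM in Control. Control replicate 3 reached the Treg level, so the groups overlapped. Its log2 fold change came to 0.32 ± 0.26 (edgeR adjusted p = 0.542), 0.12 without Control replicate 1 and 0.61 without Control replicate 3.

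The ratio of Adra1a to Adra1b counts was not adjusted for gene length, so only its differences between libraries can be read. On the log2 scale it was 0.89, 0.55 and 0.79 in Treg and 0.77, −0.32 and −1.01 in Control. Control replicate 1 lay within the Treg range, and the Control libraries were spread widely. The means were 0.74 ± 0.17 in Treg and −0.19 ± 0.89 in Control, a difference of 0.93 (exact two-sided permutation p = 0.2; adjusted over 5 ratios, p = 0.5). With 3 libraries against 3 this exact test cannot give a p below 0.1.

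Adrb1 encodes the beta-1 receptor, the main beta receptor of cardiomyocytes, whose loss from the cell surface is a known mark of failing hearts (ENSMUSG00000035283, chromosome 19, 56722199 to 56733113). It stood at 9.23, 9.23 and 8.54 CPM in Treg and at 9.65, 9.47 and 3.97 CPM in Control. All Treg libraries and 2 of 3 Control libraries lay within a narrow band, and Control replicate 3 lay far below it. Between the groups the log2 fold change was 0.23 ± 0.32 (edgeR adjusted p = 0.733) and −0.09 without Control replicate 3.

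For genes beyond the 9, a value with ± and no unit is a log2 fold change, Treg over Control, with its SE. Of the other adrenergic receptor genes, Adra1d had 0.34 ± 0.32 (0.11 without Control replicate 3 or without Treg replicate 2) and Adra2b 0.29 ± 0.74, with overlapping groups. Log2 fold changes were above 0 for all 6 tested adrenergic receptor genes (median 0.33), and edgeR called 0 of them. The median was 0.67 without Control replicate 3 and 0.73 with Treg replicate 3 left out as well. For Adrb1 this sign turned without Control replicate 3, and for Adra2b the log2 fold change lay between −0.26 and 1.23 when 1 library was left out. The other 3 receptor genes, Adra2a, Adra2c and Adrb3, had 0 to 7 counts in a library and were not tested.

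Adcy5 encodes adenylyl cyclase 5, which with adenylyl cyclase 6 makes most of the cyclic AMP of the adult cardiomyocyte (ENSMUSG00000022840, chromosome 16, 35154877 to 35305738). It stood at 95.3, 119 and 108 CPM in Treg and at 127, 110 and 54.3 CPM in Control. Control replicate 3 was again the lowest library, and the other 5 overlapped. This gave a log2 fold change of 0.15 ± 0.29 (edgeR adjusted p = 0.81) and −0.14 without Control replicate 3. Adcy6 stood at 198 ± 27.2 CPM in Treg and 167 ± 14.2 CPM in Control (0.24 ± 0.15, edgeR adjusted p = 0.438, and 0.13 without Treg replicate 2). The log2 ratio of Adcy5 to Adcy6 counts averaged −0.88 ± 0.16 in Treg and −0.87 ± 0.75 in Control (exact two-sided permutation p = 1), with Control replicate 3 at −1.73.

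Among the other cyclase genes, Adcy8 had the smallest p, at 1.02, 1.23 and 0.691 CPM in Treg against 0.491, 0.695 and 0.505 CPM in Control (0.79 ± 0.32, edgeR adjusted p = 0.29). Its lowest Treg library lay just below its highest Control library. Adcy4 had 0.27 ± 0.15, and 0.17 without Treg replicate 2. Adcy9 had 0.22 ± 0.19, and 0.11 to 0.45 when 1 library was left out, the highest without Control replicate 3 and the lowest without Control replicate 2. Of 8 tested cyclase genes 5 had values above 0 and 3 below, with a median of 0.19, and of 0.10 over the 9 genes tested without Control replicate 3.

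Grk5 encodes a G protein-coupled receptor kinase that also enters the nucleus of cardiomyocytes, where it is known in mice to promote hypertrophic growth (ENSMUSG00000003228, chromosome 19, 60889749 to 61095968). It stood at 55.6, 77.4 and 66.2 CPM in Treg and at 91.6, 71.0 and 55.6 CPM in Control. The groups covered nearly the same range. The difference on the log2 scale was −0.13 ± 0.21 (edgeR adjusted p = 0.763) and 0.08 without Control replicate 1. Grk2, the other major cardiac receptor kinase, stood at 56.6 ± 2.70 CPM in Treg and 54.1 ± 4.29 CPM in Control, a log2 fold change of 0.07 ± 0.12 that lay between 0.00 and 0.11 when 1 Control library was left out. The log2 ratio of Grk5 to Grk2 counts differed by −0.18 (exact two-sided permutation p = 0.6).

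For the less studied kinases Grk3 and Grk4, every Treg library lay below every Control library. In their list 27.3% of tested genes had groups that did not overlap, close to the 25.4% of all tested genes. Grk3 stood at 36.3, 49.1 and 37.5 CPM in Treg and at 50.7, 51.7 and 77.1 CPM in Control (−0.55 ± 0.21, edgeR adjusted p = 0.272, and −0.32 without Control replicate 3). Grk4 had −0.48 ± 0.20 (edgeR adjusted p = 0.294). Rgs4, which speeds the shut-off of Gq and Gi signals, had 0.40 ± 0.16 and Arrb2, a beta-arrestin gene, 0.37 ± 0.21, with 0.19 for Arrb2 without Control replicate 3. Of 11 tested genes for kinases, arrestins and RGS proteins 5 had values above 0 and 6 below, with a median of −0.06 and 0 called by edgeR. Without Control replicate 3 the median was 0.08.

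**Figure D2:**
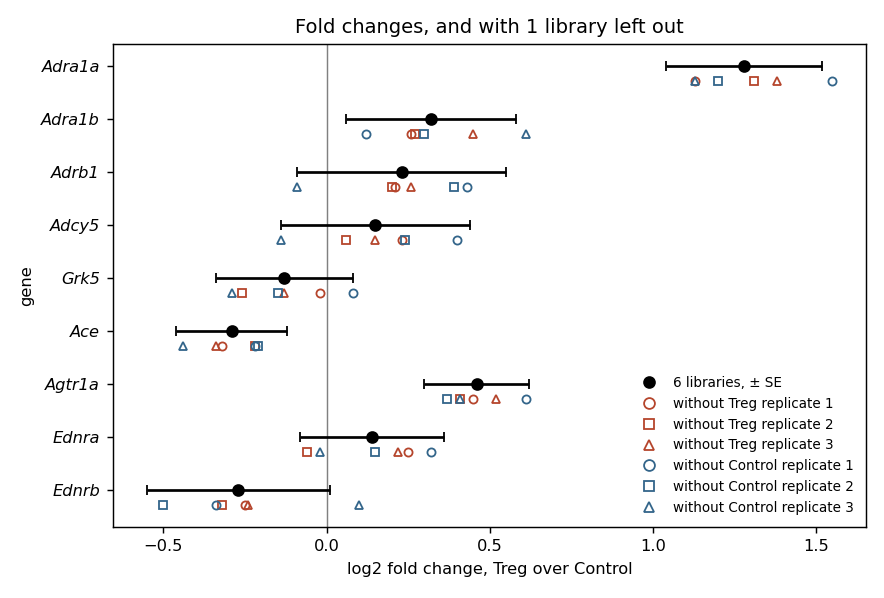
Log2 fold changes, Treg over Control (horizontal axis), of the 9 genes with all 6 libraries (black, ± SE), and below each the values with 1 library left out. Adra1a, Adra1b, Agtr1a and Ace keep their sign in all 6 omissions, and the other 5 genes cross 0 in at least 1.

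Ace encodes angiotensin-converting enzyme, which sits on the endothelial surface and makes angiotensin II from angiotensin I (ENSMUSG00000020681, chromosome 11, 105967945 to 105989964). It stood at 153, 131 and 157 CPM in Treg and at 198, 202 and 141 CPM in Control. Treg libraries lay below Control replicates 1 and 2, while Control replicate 3 lay inside the Treg range. The log2 fold change was −0.29 ± 0.17 (edgeR adjusted p = 0.423) and −0.44 without Control replicate 3 (edgeR adjusted p = 0.139). Exons of an antisense gene, Gm11651, overlap Ace, and its values ranked in the same order as those of Ace within each group, at 370, 288 and 418 counts in Treg and 453, 478 and 341 in Control. The sources used here do not say whether reads were counted by strand, so reads of Ace and Gm11651 cannot be told apart.

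Agtr1a encodes the type 1a angiotensin receptor, the main angiotensin II receptor of mice, found in the heart largely on fibroblasts and mural cells (ENSMUSG00000049115, chromosome 13, 30336441 to 30382867). It stood at 19.3, 20.1 and 17.2 CPM in Treg and at 16.4, 12.1 and 12.7 CPM in Control. Every Treg library lay above every Control library, though Treg replicate 3 exceeded Control replicate 1 by less than 1 SD of either group. The means were 18.9 ± 1.52 CPM in Treg and 13.7 ± 2.30 CPM in Control, a log2 fold change of 0.46 ± 0.16 (edgeR adjusted p = 0.255, DESeq2 adjusted p = 0.195). It lay between 0.37 and 0.61 when any 1 library was left out.

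Of 6 pericyte and smooth muscle markers, 3 had a log2 fold change above 0 and 3 at or below it. The markers (Pdgfrb, Cspg4, Kcnj8, Abcc9, Myh11 and Acta2) summed to 565 to 588 CPM in Treg and 407 to 434 CPM in Control. Most of that difference lay in Abcc9, which cardiomyocytes also express, at 284, 341 and 274 CPM in Treg and 182, 130 and 131 CPM in Control. Pdgfrb had −0.12 ± 0.15 and Acta2 0.00 ± 0.20. Of the 6, 2 (Abcc9 and Myh11) were higher and 1 (Cspg4) was lower in every Treg library, against 13.7% and 11.7% of all tested genes. Fibroblast markers, 5 of 5 tested, summed to 1390 to 2098 CPM in Treg and 1606 to 2018 CPM in Control. Single fibroblast markers went both ways. Log2 fold changes were above 0 for Dcn (0.30), Tcf21 (0.31) and Lum (0.66), and below 0 for Pdgfra (−0.66) and Col1a1 (−0.40). Without Control replicate 3, Tcf21 stood at 0.05 and Pdgfra at −0.11, both near 0. Dcn then stood at 0.42, Lum at 0.44 and Col1a1 at −0.60. The part of these cells in the Agtr1a values was not tested.

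The remaining renin-angiotensin genes had values in both directions. Nr3c2, the mineralocorticoid receptor gene through which aldosterone acts, stood at 14.5, 16.4 and 14.2 CPM in Treg and at 9.26, 7.74 and 6.53 CPM in Control. The groups were well apart. Its log2 fold change was 0.94 ± 0.17, with an edgeR adjusted p of 0.116, a DESeq2 adjusted p of 0.000857, and an edgeR adjusted p of 0.0422 without Control replicate 3.

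Mme, which encodes neprilysin, a peptidase that clears angiotensin and natriuretic peptides, stood at 15.5, 15.9 and 12.3 CPM in Treg and at 6.28, 8.04 and 12.4 CPM in Control. Only Control replicate 3 reached the Treg range. The log2 fold change was 0.71 ± 0.26 (edgeR adjusted p = 0.263) and 1.02 without that library (edgeR adjusted p = 0.0415). Cma1, a mast cell chymase gene, had 0.89 ± 0.40 at under 1 CPM in every library. Atp6ap2, the prorenin receptor gene, had −0.37 ± 0.15, and Agt, the angiotensinogen gene, −0.92 ± 0.54, with −0.21 without Control replicate 3. Enpep had 0.27, and 0.10 without that library. Lnpep at 0.09, Agtrap at −0.01 and Mas1 at −0.13 each took the other sign when 1 of the libraries was left out, and without Control replicate 3 they stood at −0.03, −0.28 and 0.07.

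Ren1 had 0 to 2 counts, Agtr2 0 to 3 and Agtr1b 0 in each library, and these 3 genes were not tested. Of the 12 tested renin-angiotensin genes 6 had values above 0 and 6 below, with a median of 0.04, and of 0.02 without Control replicate 3. By edgeR 0 passed the threshold over all genes. Without Control replicate 3, 2 did so (Nr3c2 and Mme), against 1.3% of all genes tested in that setting. With Treg replicate 3 left out as well, 1 did so (Mme, edgeR adjusted p = 0.0476), against 119 of 17395 tested genes. Nr3c2 then had an edgeR adjusted p of 0.0726.

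Ednra encodes the endothelin A receptor of cardiomyocytes and vascular smooth muscle, through which endothelin constricts vessels (ENSMUSG00000031616, chromosome 8, 77663031 to 77724464). It stood at 61.3, 90.4 and 64.9 CPM in Treg and at 80.3, 66.5 and 49.5 CPM in Control. The groups overlapped, with the highest value in Treg replicate 2. The log2 fold change was 0.14 ± 0.22 (edgeR adjusted p = 0.758), −0.06 without Treg replicate 2 and −0.02 without Control replicate 3. The noncoding gene 4933431K23Rik shares exon sequence with Ednra on the opposite strand and had 158.5 to 389.88 estimated counts in a library, against 1470 to 2507 for Ednra. Its values ranked in the same order as those of Ednra within each group. As for Ace, reads of Ednra and 4933431K23Rik cannot be told apart.

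Ednrb encodes the endothelin B receptor, which on endothelium clears endothelin and releases nitric oxide (ENSMUSG00000022122, chromosome 14, 103814625 to 103844402). It stood at 23, 25.4 and 22.7 CPM in Treg and at 25.6, 18.6 and 41.8 CPM in Control. The Treg libraries agreed closely, and Control replicate 3 was far above all others. The log2 fold change was −0.27 ± 0.28 (edgeR adjusted p = 0.622) and 0.10 without Control replicate 3. The log2 ratio of Ednrb to Ednra counts was −1.41, −1.83 and −1.52 in Treg and −1.65, −1.84 and −0.24 in Control (exact two-sided permutation p = 0.9), with Control replicate 3 alone near 0.

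Of the ligand genes, Edn3, which encodes endothelin 3, a ligand with a preference for the B receptor, stood at 3.76, 3.10 and 4.52 CPM in Treg and at 1.33, 1.19 and 0.337 CPM in Control. Every Treg library was above every Control library, by more than the SD of either group. The log2 fold change was 1.99 ± 0.45, with an edgeR adjusted p of 0.156, a DESeq2 adjusted p of 0.00236, and 0.0354 by edgeR without Control replicate 3, where it was 1.59.

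Edn1, which encodes endothelin 1, the main vasoconstrictor endothelin, stood at 4.39, 3.75 and 4.05 CPM in Treg and at 6.63, 4.5 and 5.59 CPM in Control. The groups did not overlap, but the gap between them was narrow (−0.46 ± 0.20, edgeR adjusted p = 0.314, and −0.30 without Control replicate 1). Of the converting enzymes, Ece1 had −0.45 ± 0.34, and 0.10 without Control replicate 3, and Ece2 had 0.40 ± 0.20. Edn2 had 0 counts in every library. Of 6 tested endothelin genes 3 had values above 0 and 3 below, with a median of −0.07, and edgeR called 0 with all 6 libraries and 1 (Edn3) without Control replicate 3, against 1.3% of all genes tested in that setting. The median was then 0.10. With Treg replicate 3 left out as well, the edgeR adjusted p of Edn3 was 0.0633.

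**Figure D3:**
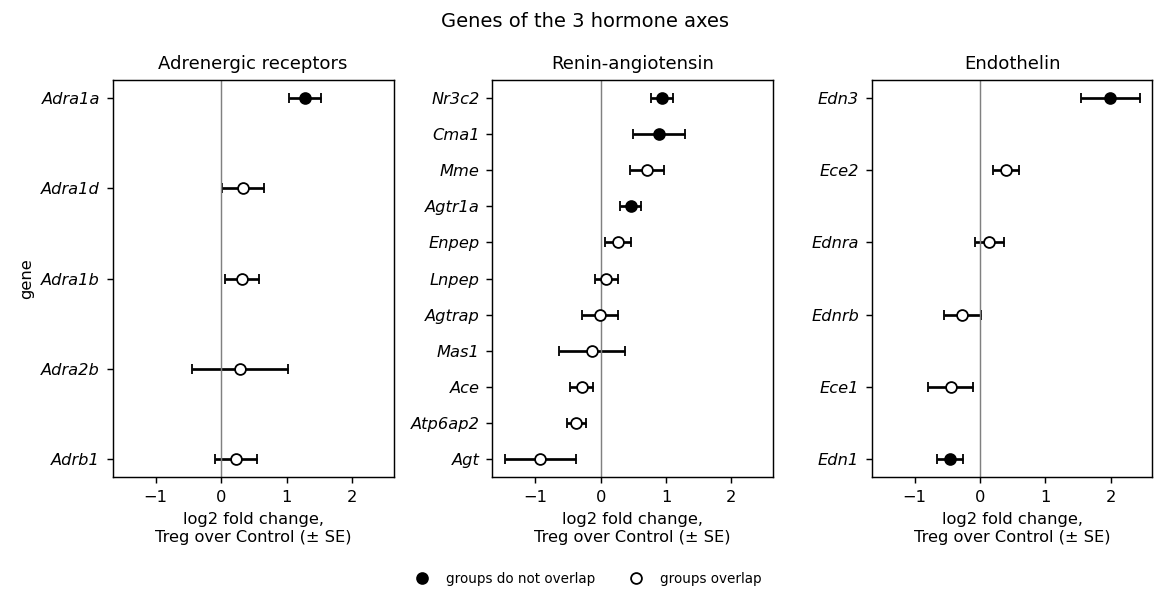
Log2 fold changes, Treg over Control (horizontal axes, ± SE), of adrenergic receptor, renin-angiotensin and endothelin genes. Filled points mark genes whose Treg and Control libraries do not overlap, with Edn3 at 1.99 and Adra1a at 1.28 farthest to the right and Agt at −0.92 farthest to the left.

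Downstream of these receptors, edgeR called 0 genes in each of the lists for G proteins, cyclic AMP and Gq signalling. Among 10 G protein alpha subunit genes, Gnai1, which encodes an inhibitory subunit, had −0.85 ± 0.29 and Gna13 −0.49 ± 0.20, each with every Treg library below every Control library. Groups did not overlap for 30% of this list, against 25.4% of all tested genes. Without Control replicate 3, Gnai1 stood at −0.55 and Gna13 at −0.25. Gna12 had 0.27 ± 0.13 and Gnai2 −0.25 ± 0.14. The list's median was −0.11, with 3 values above 0 and 7 below, and −0.07 without Control replicate 3.

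Among 16 tested genes acting on or after cyclic AMP, 7 had values above 0 and 9 below, with a median of −0.03. Without Control replicate 3 the median was 0.14. Akap5, an anchoring protein that holds protein kinase A near the beta receptor, stood at 3.07, 1.55 and 2.61 CPM in Treg and at 1.09, 0.960 and 0.842 CPM in Control (1.32 ± 0.31, edgeR adjusted p = 0.16, DESeq2 adjusted p = 0.027). Its groups did not overlap. Rapgef4, which encodes the cyclic AMP sensor EPAC2, had 0.56 ± 0.19. The phosphodiesterase gene Pde1c had 0.78 ± 0.32, and 0.47 without Control replicate 3. Pde4a had 0.91 ± 0.46, and 0.49 without that library.

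Among 15 genes acting after Gq, 9 had values above 0 and 6 below, with a median of 0.24. The median was 0.12 without Control replicate 3 and 0.09 with Treg replicate 3 left out as well. The cation channel gene Trpc6, downstream of phospholipase C, had 0.77 ± 0.40 at under 1 CPM, the inositol trisphosphate receptor gene Itpr2 0.45 ± 0.17 and the protein kinase C gene Prkcd −0.30 ± 0.13. Itpr2 stood at 0.28 without Control replicate 3.

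Genes for making, storing and breaking down catecholamines were tested in 7 of 11 cases, with 4 values above 0, 3 below and a median of 0.05, which was 0.24 without Control replicate 3. Dbh, which encodes the enzyme that makes noradrenaline from dopamine, stood at 2.64, 1.95 and 1.44 CPM in Treg and at 0.456, 0.927 and 0.202 CPM in Control (1.92 ± 0.50, edgeR adjusted p = 0.185, DESeq2 adjusted p = 0.0242). The groups did not overlap, but counts were low, at 46 to 80 in Treg and 6 to 28 in Control. Th, which encodes an earlier enzyme of the same pathway, had 0 to 4 counts in Treg and 2 to 8 in Control and was not tested. The noradrenaline transporter gene Slc6a2 had 0 to 12 counts in a library and was not tested.

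Slc18a2, the vesicular monoamine transporter gene, had 0.71 ± 0.29, Maob, a monoamine oxidase gene, 0.69 ± 0.28 and Ddc −0.38 ± 0.27. Maob stood at 0.45 without Control replicate 3, and Ddc at −0.20 without Control replicate 1.

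Per length of exon, the 9 genes spanned a wide range. Mean levels over the 6 libraries, in CPM per kilobase of exon, were 31.0 for Ace, 14.2 for Adcy5, 12.6 for Ednra, 9.86 for Grk5, 6.14 for Ednrb, 5.85 for Agtr1a, 3.12 for Adra1b, 2.47 for Adrb1 and 1.59 for Adra1a. Ace lay above Adcy5 in 6 of 6 libraries. Ednrb and Agtr1a were not separated, with Ednrb higher in 3 of 6 libraries, and Adra1b lay above Adrb1 in 4 of 6. Adra1a lay below Adrb1 in 6 of 6 libraries, at 2.26 ± 0.412 CPM per kilobase in Treg and 0.930 ± 0.272 in Control, against 2.66 ± 0.118 in Treg and 2.28 ± 0.954 in Control for Adrb1. In Treg replicate 1 they were nearly equal, at 2.72 for Adra1a and 2.73 for Adrb1. These levels use every annotated exon of a gene and so depend on how many long or rare exons the annotation holds.

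**Figure D4:**
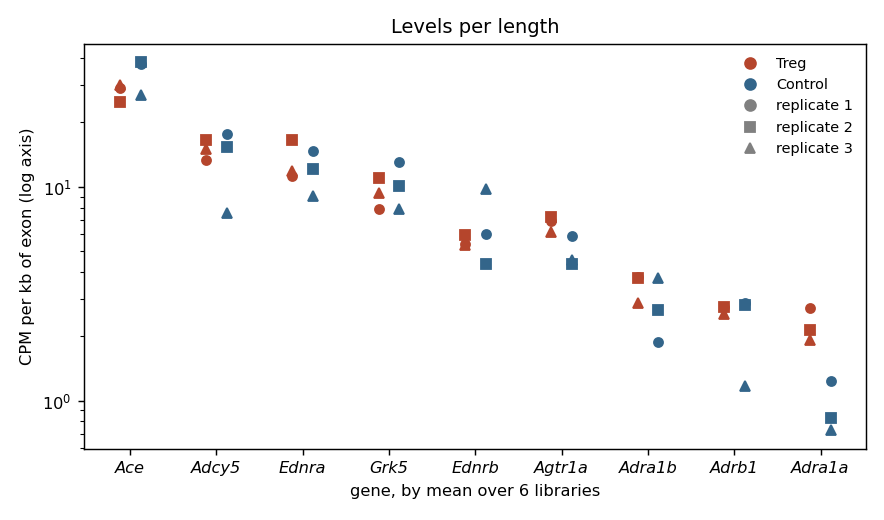
CPM per kilobase of annotated exon (log axis) of the 9 genes, ordered by their mean over the 6 libraries, with Treg left of Control for each gene. Ace is highest, at 24.8 to 38.2 over the libraries, and Adra1a lowest, at 0.725 to 2.72.

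For 5 genes the sign of the fold change turned when 1 library was left out, and for 4 of these (Adrb1, Adcy5, Ednra and Ednrb) it turned without Control replicate 3. Values were then taken on the log2 scale, relative to each gene's mean over the 6 libraries. In Control replicate 3, Adrb1 was at −1.0 and Adcy5 at −0.86, while Ednrb was at 0.72. Adra1a (−0.96) and Ednra (−0.45) also had their lowest value there. In the other 5 libraries, Adrb1 lay between 0.09 and 0.27, Adcy5 between −0.05 and 0.36 and Ednrb between −0.44 and 0.01. The summed cardiomyocyte markers were lowest in Control replicate 3, at 29670 CPM, against 34319 to 46513 CPM in Treg and 38893 to 45497 CPM in the other Control libraries. Of the 6 markers, Myh6, Ttn and Ryr2 were lowest there, with Myh6 at 12476 CPM, while Tnni3, Tnnt2 and Actn2 were not. Endothelial markers, 5 of 5 tested, summed to 634 CPM there, against 495 to 602 CPM in Treg and 431 to 541 CPM in the other Control libraries. Of these, Pecam1 alone lay outside the range of the other libraries, at 263 CPM there, against 137 to 150 CPM in Treg and 128 to 157 CPM in the other Control libraries. Cdh5, Kdr, Tie1 and Emcn lay within it. Erythroid markers summed to 186 CPM there, against 684 to 1202 CPM in Treg and 831 to 1815 CPM in the other Control libraries. Neutrophil markers, 5 of 5 tested, summed to 35.5 CPM there, against 7.85 to 18.0 CPM in Treg and 6.6 to 8.64 CPM in the other Control libraries. Most of that sum was S100a8, at 12 CPM, and S100a9, at 13.1 CPM. Cxcr2 and Retnlg were also highest there, while Csf3r, at 5.72 CPM, lay within the range of the other libraries. The part of these cell types in these genes' values was not tested.

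**Figure D5:**
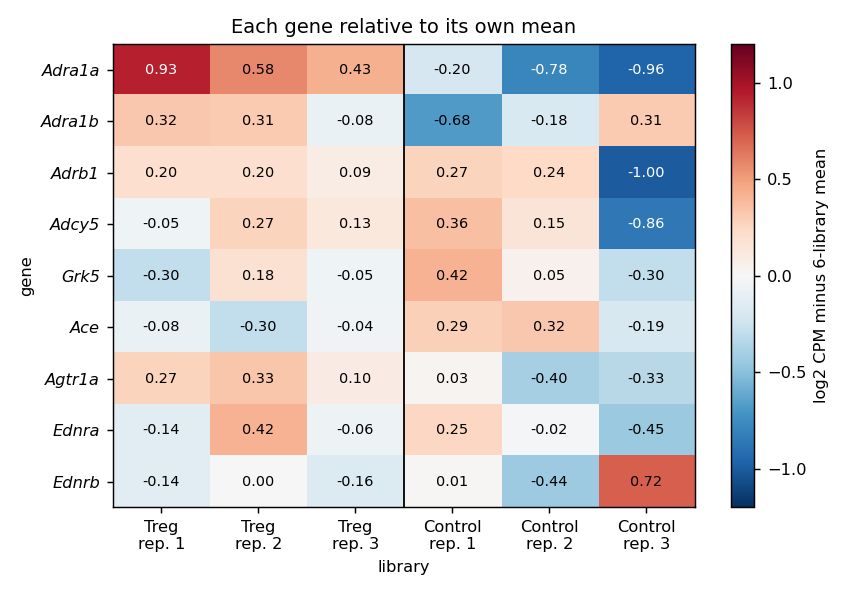
Log2 CPM of each gene (rows) minus its mean over the 6 libraries, by library (columns, Treg left, Control right). Control replicate 3 holds the lowest value of Adrb1 (−1.0), Adra1a (−0.96), Adcy5 (−0.86) and Ednra (−0.45) and the highest of Ednrb (0.72). Adra1a is above its mean in all 3 Treg libraries.

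Counts of members without Control replicate 3 were added after seeing the data. In that setting 4 of 9 genes had an unadjusted p under 0.05 by edgeR, 3 higher (Adra1a, Adra1b and Agtr1a) and 1 lower (Ace) in Treg, against 18.5% of all tested genes. The groups then did not overlap for 5 of 9 genes, these 4 and Adrb1, whose Treg values lay just below those of Control replicates 1 and 2, against 36.9% of all tested genes, and edgeR called 0 of the 9. With Treg replicate 3 left out as well, the counts were 4 of 9, against 15.9% of all tested genes, and 5 of 9, against 48.5%.

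The promoters of Adrb1, Adcy5 and Ednrb are shown with Control replicate 3 in view, because the first 2 had their lowest value there and Ednrb its highest. Ednra and Adra1a, not shown, also had their lowest value there. The choice of the promoters shown was made after the genes' values were seen. Each is the 250 bases before the RefSeq start on GRCm38.p6, on the gene's own strand, at chr19:56721867-56722116 (plus strand) for Adrb1, chr16:35154614-35154863 (plus strand) for Adcy5 and chr14:103843702-103843951 (minus strand) for Ednrb. Capitals mark matches, on either strand, to GGGCGG (a GC box) or TGACGT (the core of a cyclic AMP response element).
Adrb1: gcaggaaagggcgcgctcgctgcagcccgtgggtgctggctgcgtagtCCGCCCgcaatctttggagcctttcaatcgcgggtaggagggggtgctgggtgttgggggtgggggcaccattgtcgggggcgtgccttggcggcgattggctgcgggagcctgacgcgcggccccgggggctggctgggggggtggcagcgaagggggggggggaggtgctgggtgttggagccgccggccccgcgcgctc
Adcy5: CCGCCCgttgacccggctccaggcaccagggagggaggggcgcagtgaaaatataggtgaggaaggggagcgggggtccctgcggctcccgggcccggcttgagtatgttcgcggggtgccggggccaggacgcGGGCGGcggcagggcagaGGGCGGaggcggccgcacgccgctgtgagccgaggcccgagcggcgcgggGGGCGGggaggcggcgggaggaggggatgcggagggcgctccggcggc
Ednrb: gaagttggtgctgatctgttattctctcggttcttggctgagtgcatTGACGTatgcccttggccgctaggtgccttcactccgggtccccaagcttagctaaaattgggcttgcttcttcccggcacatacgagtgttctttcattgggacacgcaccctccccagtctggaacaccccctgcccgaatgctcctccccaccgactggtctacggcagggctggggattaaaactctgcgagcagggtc

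The Adrb1 and Adcy5 windows were GC-rich, at 74.0% and 78.0% G or C, and held 1 and 4 matches to GGGCGG. The Ednrb window had 56.8% and none, and that of Ednra, not shown, had 54.8% and none. Over 32851 RefSeq promoter windows of the same length the median was 52.4%, and 32.7% held GGGCGG. The Ednrb window held 1 match to TGACGT, as did 6.47% of all windows. None of the 3 windows shown held TATAAA, which 12.4% of all windows hold. These matches describe the letters of the windows. Entries were present for 7 of the 9 genes, and those missing were Adra1a and Agtr1a.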

How the data were processed

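The authors deposited a table of estimated counts per Ensembl gene, not normalized. Between 46.5% and 50.0% of values above 0 in a library are fractional. Stranded mRNA libraries were read as paired 101 bp reads, per the labels' protocols. Per the submitters' processing notes the tools were featureCounts 2.0.6, HISAT2 2.1.0, Trimmomatic 0.39 and Cuffdiff 2.2.1, and the build was GRCm38. The table's 6 columns that match no listed sample were not used.

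Estimated counts were rounded to the nearest whole number, ties upward. The design had been written for raw counts, and the same test was kept. Symbols, positions and exon lengths came from GENCODE M21 (GRCm38), with symbols for 47224 IDs. Genes kept by filterByExpr (17365) were scaled with TMM and tested with edgeR 4.0.16 in R 4.3.3 (robust quasi-likelihood F test, two-sided, no covariates, Benjamini-Hochberg adjustment over all tested genes, threshold 0.05). A standard error is the absolute log2 fold change over the root of its F statistic. CPM per kilobase used the union of a gene's exons. Ratios within a library were compared by exact permutation over 20 splits.

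The members and gene lists were chosen with earlier results of these data known. Named were all members, every renin-angiotensin and endothelin gene, up to 4 further genes with the smallest p in each other list, the 3 genes most like the member with the smallest p, and genes needed for a ratio. Pde2a, listed among cyclic AMP genes, was not analysed here. Some genes of the lists that this rule would name, and 1 marker list, are not reported here, though counts and medians over the lists include them. Alternatives were DESeq2 1.42.0, limma-voom 3.58.1, RLE scaling, 2 other filters, leaving out mitochondrially encoded genes, a block for replicate number and omission of libraries. The edgeR test was checked on simulated data.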

Additional observations from a re-analysis of the deposited data

How the results depend on the processing

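The number of genes past the threshold was 0 with edgeR on all 6 libraries, with limma-voom, RLE scaling, a filter at a mean of 1 CPM and mitochondrially encoded genes removed. It was 650 with DESeq2, 38 with no filter on low counts, 0 to 230 when 1 library was left out (230 without Control replicate 3, 0 otherwise), and 119 without Control replicate 3 and Treg replicate 3 together. Replicate numbers are shared between the groups. Deviations from the group means correlated at −0.142, −0.236 and 0.042 for same-numbered libraries, and at −0.237 to 0.309 for differently numbered ones. With 3 libraries a group, these correlations cannot decide whether the numbers mark pairs. With the replicate number as a block edgeR called 0 genes. Among 126 values of single members under an alternative, 116 kept their sign and their side of the threshold, 1 passed it (Adra1a with DESeq2) and 9 changed sign. Without Control replicate 3 the log2 fold change was −0.09 for Adrb1, −0.02 for Ednra, 0.10 for Ednrb and −0.14 for Adcy5. With Treg replicate 3 left out as well it was −0.06 for Adrb1, 0.12 for Ednrb and −0.15 for Adcy5. Ednra was at −0.06 without Treg replicate 2, and Grk5 at 0.08 without Control replicate 1. Members at an unadjusted p under 0.05 numbered 2 with all libraries and 4 in both settings without Control replicate 3, and members without overlap 2 and 5. Over all single omissions the log2 fold change spanned −0.09 to 0.43 for Adrb1, −0.06 to 0.32 for Ednra, −0.50 to 0.10 for Ednrb, −0.29 to 0.08 for Grk5 and −0.14 to 0.40 for Adcy5. The cause of these changes was not tested. The within-library ratio of Ednrb to Ednra differed by −0.64 to 0.16 over single omissions, and that of Adra1a to Adra1b by 0.52 to 1.41. With 3 libraries a group, a log2 difference the size of that of Ace, −0.29 ± 0.17 (SE), could not be told from 0.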
